A study of Rattus norvegicus with 36 samples.

Results

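Nefm encodes the medium chain of neurofilaments, the intermediate filaments of neurons. The gene is 1 row, ENSRNOG00000013916, of the 31546 genes in the count tables of rat ventral striatum, and it was chosen by its measured levels in these same pools, already known to be lowest in one group. All of its values below are therefore descriptions, with no test. Its identifier was given with the rule, and the same identifier was found when the symbol Nefm was joined to the tables by published fold changes. RNA came from the bilateral nucleus accumbens of 8-week-old Sprague-Dawley rats, males by the study's methods, killed on the day after the last injection.

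All rats received intraperitoneal injections, 3 per day for 5 days. The Sal–Sal group received 15 saline injections. The Sal–Coc group received saline and then 3 cocaine injections on the last day, with 13 saline injections given in its label, 1 more than a total of 15 would leave. The Coc–Coc group received 15 cocaine injections. Total cocaine dose and the number of days with cocaine rose together, so they cannot be told apart. Each group had 3 pools. The methods give 2 rats per pool, whereas the labels name 1 rat per sample, and an animal's own level cannot be read from a pool. The labels' phenotype field calls Coc–Coc rats vulnerable and Sal–Coc rats saline rats, so groups were taken from the descriptions and treatments.

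Neurofilaments are built from a light, a medium and a heavy chain, encoded by Nefl, Nefm and Nefh, together with alpha-internexin (Ina) in the central nervous system and peripherin (Prph) mainly in peripheral neurons. The light chain forms the core of the filament. The medium and heavy chains carry long tails that project from it, are heavily phosphorylated and help to set the calibre of axons. Neurofilaments are also found at synapses, where the medium chain is known to bind the dopamine D1 receptor. They are most abundant in large neurons with thick axons, whereas most cells of the nucleus accumbens are medium spiny neurons.

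The 9 pools held between 36372166 and 42449841 counts, from 4 technical replicates each that held between 9032053 and 10813391. Symbols could be joined only to genes that the study itself listed as changed in these libraries, 1506 in all. The defining markers of medium spiny neurons were not among them, with 0 of 12 list members joined, so the labelled tissue could not be checked against them. Where several groups are compared below, the comparisons share pools.

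Nefm was lowest after 5 days of cocaine. In the Sal–Sal pools it was at 91.7, 101 and 98.4 CPM, the usual unit of counts relative to library size, with library sizes scaled by the trimmed mean of M-values (TMM). In the Sal–Coc pools it was at 109, 105 and 115 CPM. In the Coc–Coc pools it was at 73.3, 51.8 and 74.8 CPM. No group overlapped with another, as in 4.02% of the genes tested, and the saline pools lay between both cocaine groups.

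**Figure D1:**
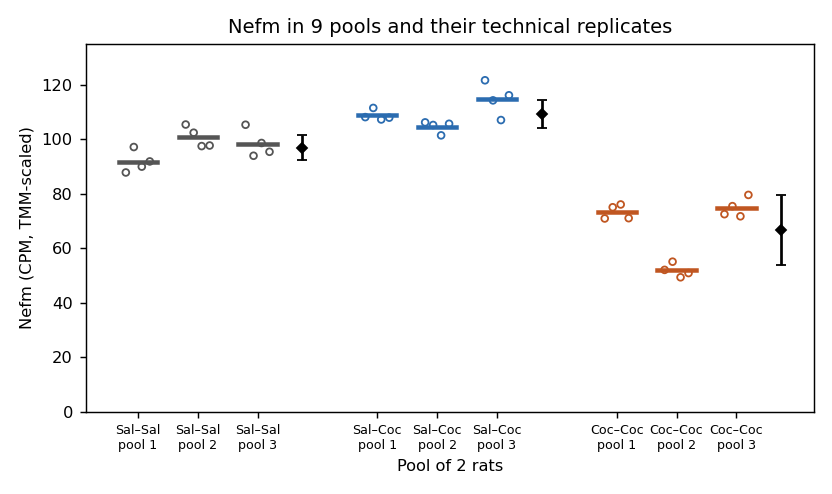
Nefm in CPM (y axis, linear from 0) in each pool of the 3 groups (x axis). Thick lines are pools, open circles their 4 technical replicates, and black diamonds with bars the mean ± SD of 3 pools. The Coc–Coc pools lie between 51.8 and 74.8 CPM, below every other pool, and the Sal–Coc pools lie above the Sal–Sal pools by a small gap.

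The mean of the Sal–Sal pools was 97.0 ± 4.73 CPM (SD, n = 3), that of Sal–Coc 109 ± 5.12 and that of Coc–Coc 66.6 ± 12.8. Against Sal–Sal, the fitted level in Coc–Coc was 31.3% lower, a log2 fold change of -0.54 (standard error 0.13). Standard errors here and below were worked back from the edgeR quasi-likelihood statistic over all 9 pools. For Nefm, chosen for this pattern, they are descriptions and not a test. Against Sal–Coc it was 39.1% lower, a log2 fold change of -0.72 (standard error 0.13). Sal–Coc stood 1.13-fold above Sal–Sal, a log2 fold change of 0.17 with a standard error of 0.13, and the pools did not overlap. This step was little larger than that error. The error rests on a spread shared by all groups, however, and the Coc–Coc pools, which are not part of this step, were the most spread. The closest pools of both groups were 3.84% apart with TMM and 1.60% apart with upper-quartile scaling. Between the lowest Sal–Sal pool and the highest Coc–Coc pool the gap was 22.6% with TMM and 13.0% with plain library totals. In bulk RNA of this kind, fewer cells that express a gene and less RNA per cell cannot be told apart.

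The Coc–Coc pools differed more among themselves than the others did. The coefficient of variation of Nefm was 19.3% there, against 4.88% for Sal–Sal pools and 4.68% for Sal–Coc pools. Pool 2 was the low one, and without it the Coc–Coc mean was 74.0 CPM, which is still under the lowest Sal–Sal pool. The log2 fold change without that pool was -0.39 against Sal–Sal and -0.56 against Sal–Coc. Over the 9 fits that each left out 1 pool, it stayed between -0.63 and -0.39 against Sal–Sal and between -0.81 and -0.56 against Sal–Coc. The step from Sal–Sal to Sal–Coc stayed between 0.14 and 0.20.

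Counting error was small beside the distance of the Coc–Coc pools from the other groups. It was not small beside the gap between the closest Sal–Sal and Sal–Coc pools, 3.84% with TMM and 1.60% with upper-quartile scaling. Nefm had between 2238 and 4639 counts per pool, a counting error of 1.47% to 2.11%, and between 533 and 1178 counts per technical replicate. Within a pool, the chi-square of the technical replicates divided by its degrees of freedom was 0.351 to 2.88, where sampling alone gives about 1. Between pools of a group, with TMM-scaled library sizes, the same measure was 8.30 for Sal–Sal, 8.82 for Sal–Coc and 105 for Coc–Coc. With unscaled totals it was 36.6 for Sal–Sal, 11.0 for Sal–Coc and 88.9 for Coc–Coc, so the order of the former groups depends on the scaling. The technical replicates of Coc–Coc pool 2 had 50.2 to 56.1 CPM on their own unscaled totals and those of Coc–Coc pool 1 had 70.0 to 75.1. The low value of pool 2 thus recurred in each of its technical replicates. The descriptions do not say whether these were prepared separately, so the recurrence is no independent measure of the level of that pool. An SD between pools of the same group, averaged over the groups as a variance, was also taken on the log2 scale. Among 2326 genes with a mean level within 1.5-fold of that of Nefm, its median was 0.11. It was 0.18 for Nefm, above 83.9% of them, where the Coc–Coc pools were far more spread than those of the other groups.

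Across all 15641 genes tested, 4.34% had a lower log2 fold change than Nefm for Coc–Coc against Sal–Sal and 2.14% for Coc–Coc against Sal–Coc. In Sal–Coc vs. Sal–Sal, 30.4% had a higher one. The medians of all genes were -0.01 on the log2 scale in each comparison. The Coc–Coc pools lay wholly below the Sal–Sal pools in 17.3% of genes and wholly below the Sal–Coc pools in 9.49%, and the Sal–Coc pools lay wholly above the Sal–Sal pools in 19.3%. In 476 genes (3.04%) every Coc–Coc pool was below all 6 other pools, as for Nefm. The full order of Nefm, with every Coc–Coc pool below every Sal–Sal pool and every Sal–Sal pool below every Sal–Coc pool, was found in 9 genes (0.0575%), Nefm included. No other gene of the 9 had a joined symbol. These shares describe the pattern for which Nefm was chosen.

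Of the other 4 neuronal intermediate filament genes, Nefl and Ina could be joined to an identifier, and Nefh and Prph could not. The study lists both Nefl and Ina as changed between Coc–Coc and Sal–Sal, so their values in that comparison are not independent evidence of a direction. Nefl lies near Nefm on rat chromosome 15 in the RefSeq annotation, with the pseudogene Slc25a3-ps1 between them, and the predicted gene LOC134482139 overlaps Nefm there. The libraries were strand-specific, but the strand setting of the counting is not given in the sources used here.

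Nefl, the light chain, was at 404, 381 and 333 CPM in the Sal–Sal pools. The Sal–Coc pools had 283, 351 and 366 CPM and the Coc–Coc pools 282, 252 and 274. Every Coc–Coc pool was below all others, although the closest, Sal–Coc pool 1 and Coc–Coc pool 1, were at 282.7 and 282.1 CPM, and the pools of Sal–Sal and Sal–Coc overlapped. Against Sal–Sal, Nefl in Coc–Coc fell by 0.47 on the log2 scale (standard error 0.11, edgeR adjusted p = 0.0336, here and below from the quasi-likelihood test adjusted over all genes by Benjamini-Hochberg). That call was lost without Sal–Sal pool 1 (edgeR adjusted p = 0.129), Sal–Sal pool 2 (0.0715), Sal–Coc pool 2 (0.0524) or Coc–Coc pool 1 (0.0605), 2 (0.116) or 3 (0.103), while the 8 other alternatives gave an adjusted p of 0.00142 to 0.0676. The log2 fold changes of -0.16 in Sal–Coc vs. Sal–Sal (edgeR adjusted p = 0.347) and -0.31 in Coc–Coc vs. Sal–Coc (edgeR adjusted p = 0.482) did not pass.

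Ina, which encodes alpha-internexin, was at 133, 123 and 148 CPM in the Sal–Sal pools. After 1 day of cocaine it had 148, 117 and 119 CPM, and after 5 days 96.8, 96.3 and 105. All 3 Coc–Coc pools were again the lowest, and the other groups overlapped. Against Sal–Sal, Ina in Coc–Coc fell by 0.44 on the log2 scale (standard error 0.11, edgeR adjusted p = 0.034). The call was lost without Sal–Sal pool 1 (edgeR adjusted p = 0.108), Sal–Sal pool 3 (0.0751) or Coc–Coc pool 1 (0.0924), 2 (0.111) or 3 (0.0901), while the 8 other alternatives gave an adjusted p of 0.00323 to 0.0483. The log2 fold changes of -0.07 in Sal–Coc vs. Sal–Sal (edgeR adjusted p = 0.664) and -0.36 in Coc–Coc vs. Sal–Coc (edgeR adjusted p = 0.402) did not pass.

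**Figure D2:**
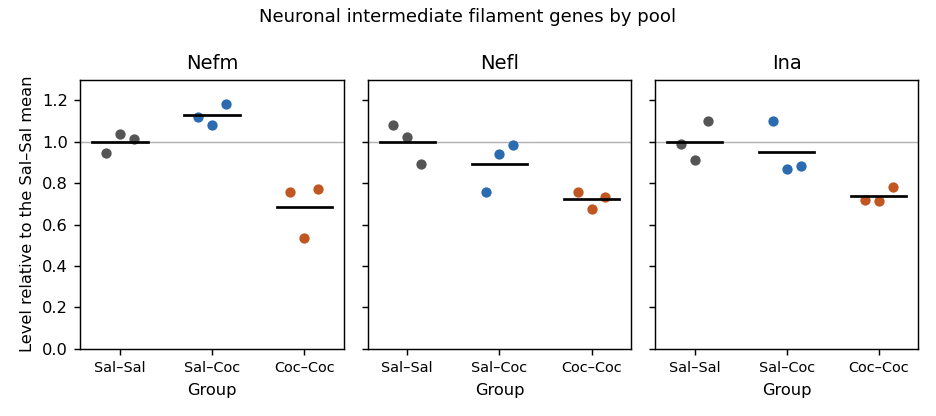
Levels of Nefm, Nefl and Ina in each pool (points) relative to the mean of the 3 Sal–Sal pools of the same gene (y axis, linear from 0), by group (x axis). Black lines are group means. The Coc–Coc pools are the lowest of each gene, and only for Nefm do all Sal–Coc pools lie above all Sal–Sal pools.

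The subunits can also be set against each other within a pool, which needs no scaling between libraries. The ratio of Nefm to Nefl counts, relative to its Sal–Sal mean, was 0.866, 1.01 and 1.13 in the Sal–Sal pools. The Sal–Coc pools had ratios of 1.47, 1.14 and 1.20, against 0.991, 0.783 and 1.04 in Coc–Coc. The Sal–Coc pools had the highest ratios, with a mean of 1.27 ± 0.18 (SD, n = 3), and the closest Sal–Sal pool was only just below them. The Coc–Coc mean of 0.938 ± 0.137 lay within the range of the Sal–Sal pools. Against Ina, Nefm had relative ratios of 1.19 ± 0.16 in Sal–Coc and 0.921 ± 0.159 in Coc–Coc, and both groups overlapped with Sal–Sal, where the SD was 0.116. The ratio of Nefl to Ina was 0.952 ± 0.233 in Sal–Coc pools and 0.969 ± 0.063 in Coc–Coc pools. The ratios that contain Nefm were not tested.

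**Figure D3:**
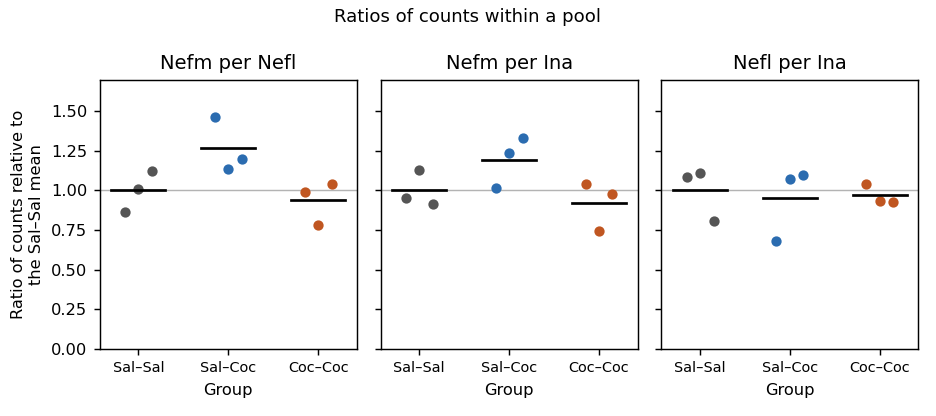
Ratios of raw counts of Nefm to Nefl, Nefm to Ina and Nefl to Ina in each pool (points), divided by the Sal–Sal mean of the ratio (y axis, linear from 0), by group (x axis). Black lines are group means. The 3 Sal–Coc pools have the highest Nefm to Nefl ratios, from 1.14 to 1.47, and the Coc–Coc pools overlap with Sal–Sal in all 3 panels.

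Beyond these filament genes, 15 lists of cytoskeletal, receptor and cell type genes were set beside Nefm, with few members that could be joined. Including Nefl and Ina, 19 list genes other than Nefm had an identifier, all because the study lists them as changed in these libraries. In Coc–Coc vs. Sal–Sal, 7 of the 19 passed an adjusted p of 0.05 in edgeR's test, 5 lower and 2 higher, where 10.9% of all genes tested did (3.75% lower and 7.13% higher). For Sal–Coc the number was 14 of 19, 10 lower and 4 higher, where 16.4% of all genes did (5.86% lower and 10.6% higher). Between Coc–Coc and Sal–Coc, 0 of 19 passed and 0% of all genes by edgeR's test, with 11 of the 19 and 9.29% of all genes at an unadjusted p under 0.05. DESeq2 called 3 of the 19 in that comparison and 0.991% of all genes. The median log2 fold changes of the 19 were -0.23, -0.36 and 0.01 in these comparisons, beside -0.01 for all genes in each. Since the study's own calls decided which genes carry a name, the shares say nothing about the lists. The count of 7 became 1 without Sal–Sal pool 1, 4 without Sal–Sal pool 2, 3 without Coc–Coc pool 1, and 0 by edgeR without Coc–Coc pool 2 or pool 3, where 12 and 10 of the 19 had an unadjusted p under 0.05. The count of 14 became 3 without Sal–Sal pool 1, 4 without Sal–Coc pool 2 and 7 without Sal–Sal pool 2 or Sal–Coc pool 3. Over the 9 fits that each left out 1 pool, Cdk5r1 and Grin1 in Sal–Coc against Sal–Sal passed in all 9, and every other called gene below missed in between 1 and 7 of them.

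Among kinases that phosphorylate neurofilament tails, the catalytic subunit Cdk5 was not joined but its neuronal activators were. Cdk5r1, which encodes the activator p35, fell in both cocaine groups, from 56.7 ± 4.16 CPM in Sal–Sal (SD, n = 3) to 40.5 ± 4.31 in Sal–Coc and 40.8 ± 2.29 with 5 days of cocaine. The log2 fold changes were -0.49 and -0.47 (edgeR adjusted p = 0.00967 and 0.0199). Unlike Nefm, its Sal–Coc and Coc–Coc pools overlapped, at a log2 difference of 0.01. Cdk5r2, the related activator p39, was at 70.2 ± 13.3 CPM in Sal–Sal, against 35.3 ± 10.2 in Sal–Coc and 40.1 ± 12.9 in Coc–Coc, and passed in Sal–Coc (log2 fold change -0.99, edgeR adjusted p = 0.031) but not in Coc–Coc (-0.81, adjusted p = 0.071).

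Other cytoskeletal genes held different orders of the groups. Tuba1b, an alpha-tubulin gene of a family with closely similar copies, fell in Coc–Coc by 0.43 on the log2 scale (edgeR adjusted p = 0.0295) and had a log2 fold change of -0.30 in Sal–Coc that did not pass (adjusted p = 0.0701). Synm, which encodes the intermediate filament protein synemin, fell in Sal–Coc by 0.59 (edgeR adjusted p = 0.0225) and had a log2 fold change of -0.23 in Coc–Coc that did not (adjusted p = 0.294). Myo5a, an actin-based motor that also binds neurofilaments, passed in Sal–Coc at a log2 fold change of -0.45 (edgeR adjusted p = 0.0343), against -0.19 in Coc–Coc (adjusted p = 0.311). Capn1, a calcium-activated protease that can cleave neurofilaments, rose in Sal–Coc by 0.81 on the log2 scale (edgeR adjusted p = 0.037), and its log2 fold change in Coc–Coc was 0.30 (adjusted p = 0.394). None of the 18 genes of axonal transport other than Myo5a and none of the 19 membrane skeleton genes could be joined.

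The NMDA receptor genes Grin1 and Grin2b encode glutamate receptor subunits, of which the former is known to bind the neurofilament light chain. Grin1 rose in both cocaine groups, by 0.46 in Sal–Coc and 0.35 in Coc–Coc on the log2 scale (edgeR adjusted p = 0.0111 and 0.0407). Grin2b was at 62.1 ± 8.15 CPM in Sal–Sal, against 38.6 ± 6.28 in Sal–Coc and 62.4 ± 9.39 in Coc–Coc (SD, n = 3), a dip in Sal–Coc where Nefm had its highest level. Its log2 fold change was -0.69 in Sal–Coc vs. Sal–Sal (edgeR adjusted p = 0.0149) and 0.01 in Coc–Coc vs. Sal–Sal (adjusted p = 0.975). The dopamine receptor genes were not joined.

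**Figure D4:**
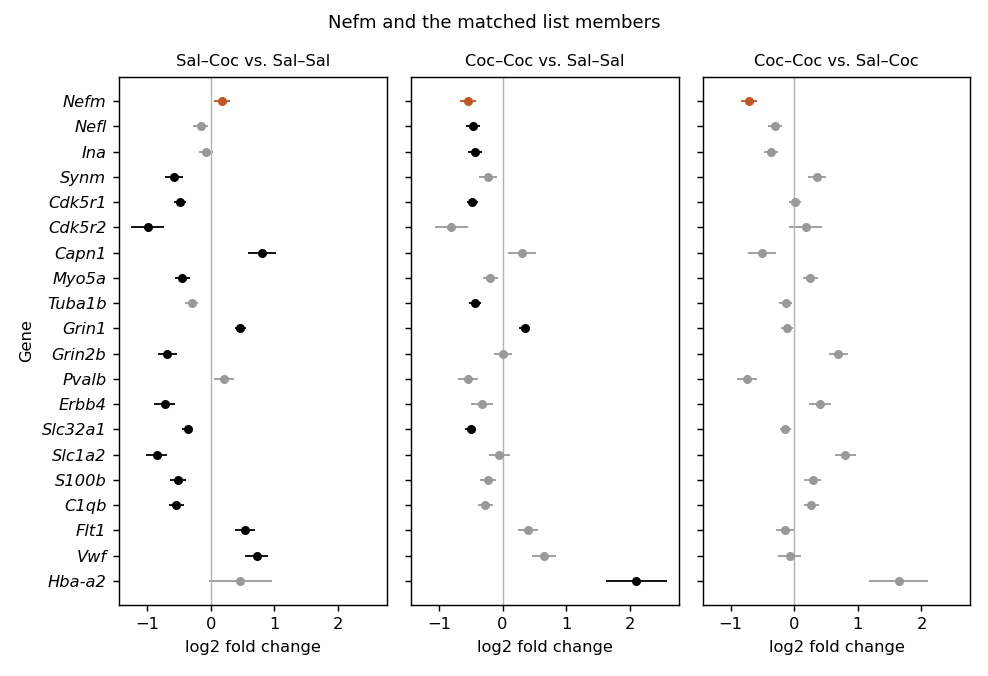
Log2 fold changes (x axis, positive when the group named first is higher) with standard errors for Nefm and the 19 joined list genes (y axis) in the 3 comparisons. Black points passed an adjusted p of 0.05 in edgeR's test, grey points did not, and Nefm (orange) was not tested. Nefm, Nefl and Ina lie close together in Coc–Coc vs. Sal–Sal, between -0.54 and -0.44.

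Markers of cells other than medium spiny neurons were checked as far as they could be joined. Of 12 genes listed for fast-spiking interneurons, neurons rich in neurofilaments, 3 were joined, none of them at 0 in any pool. Pvalb, the parvalbumin gene that defines these cells, was at 9.18, 7.91 and 11.95 CPM in the Sal–Sal pools. After 1 day of cocaine it had 10.2, 11.3 and 12.1 CPM, and after 5 days 7.24, 6.23 and 6.52. As with Nefm, the Coc–Coc pools were the lowest, but Sal–Sal and Sal–Coc overlapped. Its log2 fold changes of -0.54 in Coc–Coc vs. Sal–Sal (edgeR adjusted p = 0.0543) and -0.75 in Coc–Coc vs. Sal–Coc (adjusted p = 0.287) did not pass. The study lists Pvalb as changed in both comparisons, as it does Nefm.

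Slc32a1, the vesicular GABA transporter of all inhibitory neurons, fell in both cocaine groups, by 0.50 in Coc–Coc and 0.36 in Sal–Coc on the log2 scale (edgeR adjusted p = 0.0161 and 0.0195). Erbb4, a neuregulin receptor of interneurons, fell in Sal–Coc by 0.73 (edgeR adjusted p = 0.0215) and had a log2 fold change of -0.33 in Coc–Coc (adjusted p = 0.228). The summed level of the 3 genes was 255 to 275 CPM in Sal–Sal, 181 to 216 in Sal–Coc and 184 to 192 in Coc–Coc. Slc32a1, which is not specific to these cells, makes up most of that sum. Pvalb by itself had group means in the order of Nefm, at 9.68 ± 2.07 CPM with saline (SD, n = 3), 11.2 ± 0.967 with 1 day of cocaine and 6.66 ± 0.522 with 5 days. The part of these cells in the Nefm values was not tested. For cholinergic interneurons, cortical neurons and oligodendrocytes, 0 of 10, 0 of 12 and 0 of 12 genes could be joined.

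For astrocytes, microglia and endothelial and blood cells, 2 of 10, 1 of 10 and 3 of 10 listed genes were joined. They were joined because the study lists them as changed, so they do not stand for their cell types. All but Hba-a2 passed between Sal–Coc and Sal–Sal. Slc1a2 and S100b of astrocytes had log2 fold changes of -0.85 and -0.51 in Sal–Coc vs. Sal–Sal (edgeR adjusted p = 0.0117 and 0.0269), and C1qb of microglia had one of -0.54 (adjusted p = 0.0156). The endothelial genes Flt1 and Vwf rose in the same comparison, by 0.54 and 0.72 on the log2 scale (edgeR adjusted p = 0.0433 and 0.0277). After 5 days of cocaine Vwf did not pass, at 0.65 on the log2 scale relative to Sal–Sal (edgeR adjusted p = 0.05004). It passed in 0 of the 9 fits that each left out 1 pool (edgeR adjusted p from 0.0510 to 0.170). The log2 fold changes of Slc1a2, S100b, C1qb and Flt1 were then -0.05, -0.23, -0.27 and 0.40, and did not pass either. Hba-a2, a hemoglobin gene with near-identical copies and hence an uncertain count, was at 0.630 ± 0.339 CPM in Sal–Sal, against 0.865 ± 0.360 in Sal–Coc and 2.69 ± 1.04 in Coc–Coc (SD, n = 3). It passed in Coc–Coc vs. Sal–Sal at a log2 fold change of 2.11 (edgeR adjusted p = 0.0276), but not in Sal–Coc vs. Sal–Sal (adjusted p = 0.537). Whether blood or glial content has a part in the Nefm values was not tested.

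The genes whose pattern was most like that of Nefm were sought among 13634 genes with a mean of at least 1 CPM, by Pearson's correlation of log2(CPM + 0.1) over the 9 pools. The 8 closest genes had r between 0.899 and 0.959, and 91 genes had r above 0.8. None of the 8 had a joined symbol. ENSRNOG00000007645, the closest, was at 19.7 ± 1.23 CPM in Sal–Sal, against 20.5 ± 0.504 in Sal–Coc and 15.6 ± 1.54 in Coc–Coc (SD, n = 3). The 3 genes of the most opposite pattern had r between -0.917 and -0.897. ENSRNOG00000042592, the most opposite, was at 78.3 ± 6.78, 76.9 ± 4.01 and 102 ± 13.8 CPM in the same order of groups.

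Of the 13634 genes, 1449 had a symbol, each because the study lists it as changed in these libraries. The closest 5 of these were taken after their values had been seen. They were Adra2b, an alpha-2 adrenergic receptor (r = 0.877, rank 15), Sstr3, a somatostatin receptor (r = 0.871, rank 19), Glra2, a glycine receptor subunit (r = 0.871, rank 21), Nts, the neuropeptide neurotensin (r = 0.867, rank 23), and Cabp7, a calcium-binding protein (r = 0.85, rank 37). Pvalb followed at rank 39 with r = 0.846. Ina and Nefl, the other filament subunits, stood at ranks 170 and 290, with r of 0.743 and 0.695. Nts had 43.1 ± 6.79 CPM (SD, n = 3) with saline, 51.0 ± 4.46 with 1 day of cocaine and 31.4 ± 1.85 with 5 days. The group means of Adra2b, Sstr3 and Glra2 were in the same order as those of Nts and Nefm. Cabp7 had another order, with 20.6 ± 0.366 CPM with saline, 18.9 ± 1.77 with 1 day of cocaine and 12.9 ± 2.03 with 5 days. All 9 pools share their groups, library sizes and scaling, so these correlations describe the pools and carry no p.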

How the data were processed

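The values are unnormalized read counts by Ensembl gene as deposited by the authors, for 36 samples (4 technical replicates of 9 pools), called libraries here. Per the labels and the study's methods, polyA RNA was prepared with a strand-specific kit, and reads were trimmed, aligned with STAR to the Ensembl rat genome, kept if they mapped once and counted (HTSeq 0.5.3 in the submitters' processing notes).

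Technical replicates were summed. The main test was edgeR 4.0.16 under R 4.3.3 (filterByExpr, TMM, quasi-likelihood fit over 9 pools, Benjamini-Hochberg adjusted p under 0.05), with DESeq2 1.42.0 and limma-voom (limma 3.58.1) among the alternatives. P-values set a group difference against the spread between pools, not between single rats. Scripts were tested on simulated data.

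The tables hold no symbols. Symbols were joined where the published fold change equalled the ratio of group means of median-of-ratios normalized counts to 6 digits for 1 identifier (1506 of 1539 symbols). The published fold changes served only as this key. Nefm, the lists and the rule for named genes were chosen with earlier results of these data known. The rule named the 5 neuronal filament genes, up to 3 called members of each other list or, with none called, the 2 of highest mean CPM, and the 8 genes most and 3 least like Nefm. Since few list members had an identifier, all were named. The dorsal striatum and transcript lengths were not used here. CPM of different genes therefore do not compare their amounts of transcript. This also limits the summed levels and the choice of genes of like level above, which rest on CPM.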

Additional observations from a re-analysis of the deposited data

How the results depend on the processing

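Nefm kept the direction of all 3 log2 fold changes under all alternatives, with moves smaller than the SD between pools of the same group (0.18 on the log2 scale). Over the 8 settings that left out no pool, they ranged from 0.15 to 0.18 (Sal–Coc vs. Sal–Sal), from -0.57 to -0.54 (Coc–Coc vs. Sal–Sal), and lastly from -0.73 to -0.70 (Coc–Coc vs. Sal–Coc). With each pool left out they ranged from 0.14 to 0.20, from -0.63 to -0.39 and from -0.81 to -0.56. Likewise Nefl stayed between -0.54 and -0.39, and Ina between -0.49 and -0.36, for Coc–Coc against Sal–Sal.

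The number of genes called in Sal–Coc vs. Sal–Sal (2572) became 1445 with only the 6 pools compared and lay between 982 and 2835 when pools were left out singly, falling over 1.5 times without Sal–Sal pool 1 (982) and Sal–Coc pools 2 (1203) and 3 (1201). In Coc–Coc vs. Sal–Sal (1702) it became 2888 with DESeq2 and 0 to 2131 with each pool left out, the 0 coming from edgeR without Coc–Coc pool 3 (3533 at an unadjusted p under 0.05), with 174 without Coc–Coc pool 2, 837 without Coc–Coc pool 1, 292 and 984 without Sal–Sal pools 1 and 2, and 1052 without Sal–Coc pool 2. In Coc–Coc vs. Sal–Coc (0 by edgeR, 1453 at an unadjusted p under 0.05) it was 5 when low counts were kept, 155 by DESeq2 and 0 to 1 with each pool left out. Of the 19 joined list genes, 7 were called for Coc–Coc against Sal–Sal, and 0 to 9 when pools were left out. For Coc–Coc vs. Sal–Coc the number was 0 by edgeR, 0 in each fit without 1 pool (11 at an unadjusted p under 0.05 with all pools), and 3 with DESeq2. The cause of these changes was not tested.

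With a replicate block for pool number, 1126 genes were called in Coc–Coc vs. Sal–Sal, 4 of the 19 list genes passed there, and Nefl, at a log2 fold change of -0.47, did not (adjusted p = 0.0676 from edgeR). Same-numbered pools are different animals. Their deviations from the group means had correlations from -0.376 to 0.249 over 9 pairs, beside -0.373 to 0.510 over 18 pairs of other numbers. The labels use the number only as a name, and whether it marks a shared batch was not tested. With 3 pools per group, the log2 fold change of Nefm between Sal–Coc and Sal–Sal was 0.17, little larger than its standard error of 0.13. The smallest difference that these data can resolve was not worked out.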
